A study of Mus musculus with 2 samples.

Results

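The polycomb repressive complex 1 (PRC1) is assembled around a RING1 and a PCGF protein, and its further subunits decide which form of the complex is made. The 9 genes described here encode 4 CBX proteins (Cbx2, Cbx6, Cbx7 and Cbx8), the 3 polyhomeotic proteins (Phc1, Phc2 and Phc3), and Rybp and Yaf2. They were chosen by name from the known composition of the complex, and all 9 were found among the 21938 protein-coding genes of the annotation. A peak was given to a gene when its centre lay within 3 kb of any annotated transcript start of that gene (a promoter peak), in the gene body, or in the 10 kb upstream. By this rule the genes received 33 of 77596 peaks from the list whose GEO label is WT (the WT-labelled list) and 40 of 100431 peaks from the list whose label is Bmi1 KO (the KO-labelled list). Among the promoters, Cbx8 was marked by a strong peak at the same position in both lists. The promoter of Cbx2 held 3 peaks in the KO-labelled list and none in the WT-labelled list. Phc2 held its strongest promoter peak at the first start in the KO-labelled list alone, and Phc1 had promoter peaks in the WT-labelled list alone.

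The organ of Corti, the auditory sensory epithelium of the cochlea, was taken at P2 from WT and Bmi1-/- littermates on a C57BL/6J background, with the stria vascularis anlage, modiolus and tectorial membrane removed. The knockout carries the germline Bmi1 tm1Brn allele, so that Bmi1, which encodes a PCGF subunit of PRC1, is missing throughout the body and not from the organ of Corti alone. For each genotype the tissue of 10 mice (20 cochleae) was pooled, and 1 ATAC-seq library was made from 20000 cells. ATAC-seq measures open chromatin through insertion of sequencing adapters by the Tn5 transposase. With 1 library per genotype there was no replicate, so no difference between the lists was tested, and each interval given covers counting error only. In a pooled tissue of several cell types, a site open in more cells and a site more open in the same cells cannot be told apart.

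All peak names in the WT-labelled list began with bko and all names in the KO-labelled list began with bwt. The names inside the lists thus point the opposite way to GEO's genotype labels, and every direction below holds only if the labels are right. How many reads covered each summit, and the local background there, was recovered from the authors' fold enrichment together with −log10 p. Most often the background came to 6.32 reads (WT-labelled) or 8.04 reads (KO-labelled), which differ by 1.27 times, and on that background the weakest peaks had 13 and 15 reads at the summit. Each peak was also given its percentile, the percentage of peaks in its own list with a lower −log10 p. Peaks with tied values shared their average rank. Percentiles do not remove the difference in depth or in list size, so they are read beside those of all protein-coding genes. Of Bmi1 itself, the WT-labelled list held 1 promoter peak with 17 reads at the summit (percentile 40.1). The KO-labelled list held 4, the strongest with 29 reads (percentile 92.0). These peaks do not show whether the gene product was lost, and they check neither label. Of 10 hair cell markers 8 had a promoter peak in the WT-labelled list, 7 in the KO-labelled list and 6 in both, and of 10 supporting cell markers 9, 8 and 8 did, where 59.1%, 68.2% and 53.0% of all protein-coding genes did. In the WT-labelled and the KO-labelled list the counts were 5 and 7 of 8 for neurons, 3 and 4 of 5 for glia, 4 and 4 of 6 for mesenchyme, 2 and 1 of 6 for blood and macrophages, and 4 and 3 of 5 for endothelium. Their part in the values of the subunit genes was not tested.

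CBX proteins carry a chromodomain that binds H3K27me3, the histone mark placed by PRC2, and so bring the canonical form of PRC1 to marked chromatin. Polyhomeotic proteins belong to the same canonical form and polymerise through their SAM domain, which clusters and compacts polycomb chromatin. RYBP and its relative YAF2 bind RING1 proteins at the surface that a CBX protein would occupy. They define the variant complexes, which place most of the monoubiquitin on histone H2A. BMI1 (PCGF4) is found with CBX and PHC subunits in the canonical form and also with RYBP or YAF2. The question here was therefore how open the genes of its partner subunits were with and without Bmi1.

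A promoter peak was found at 8 of the 9 genes in the WT-labelled list, against 59.1% of all protein-coding genes, and at 8 of the 9 in the KO-labelled list, against 68.2%. For 7 genes both lists held a promoter peak (53.0% of all protein-coding genes). Cbx2 had promoter peaks only in the KO-labelled list, as did 15.2% of all protein-coding genes, and Phc1 only in the WT-labelled list, as did 6.10%. With a −log10 q of 1.3 or more required, 6 genes kept a promoter peak in the WT-labelled list (45.3% of all) and 8 in the KO-labelled list (60.4%). With 5 or more required, no member had a promoter peak in the WT-labelled list (4.17% of all), and 2 members, Phc2 and Cbx8, had one in the KO-labelled list (17.6%). Promoter peaks of both lists overlapped each other by at least 1 bp at 6 genes (Cbx7, Cbx8, Phc2, Phc3, Rybp and Yaf2), against 40.4% of all protein-coding genes.

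For 7 of the 9 genes the best promoter peak had the higher percentile in the KO-labelled list or was absent from the other. The same held for 68.6% of the 16298 protein-coding genes whose promoter had a peak in at least 1 list. With both lists cut to equal length the count was 6 of 9, and 9866 over all protein-coding genes. The share over all genes is not given for this setting, so 6 of 9 cannot be read against it. The exceptions among all peaks were Cbx7, whose strongest promoter peak ranked higher in the WT-labelled list, and Phc1. Over the genes with a promoter peak, the strongest one had a median percentile of 75.6 in the WT-labelled list and 92.8 in the KO-labelled list, while the medians over all protein-coding genes were 76.8 and 87.3. The plot of promoter percentiles shows every promoter peak of the 9 genes in both lists.

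**Figure D1:**
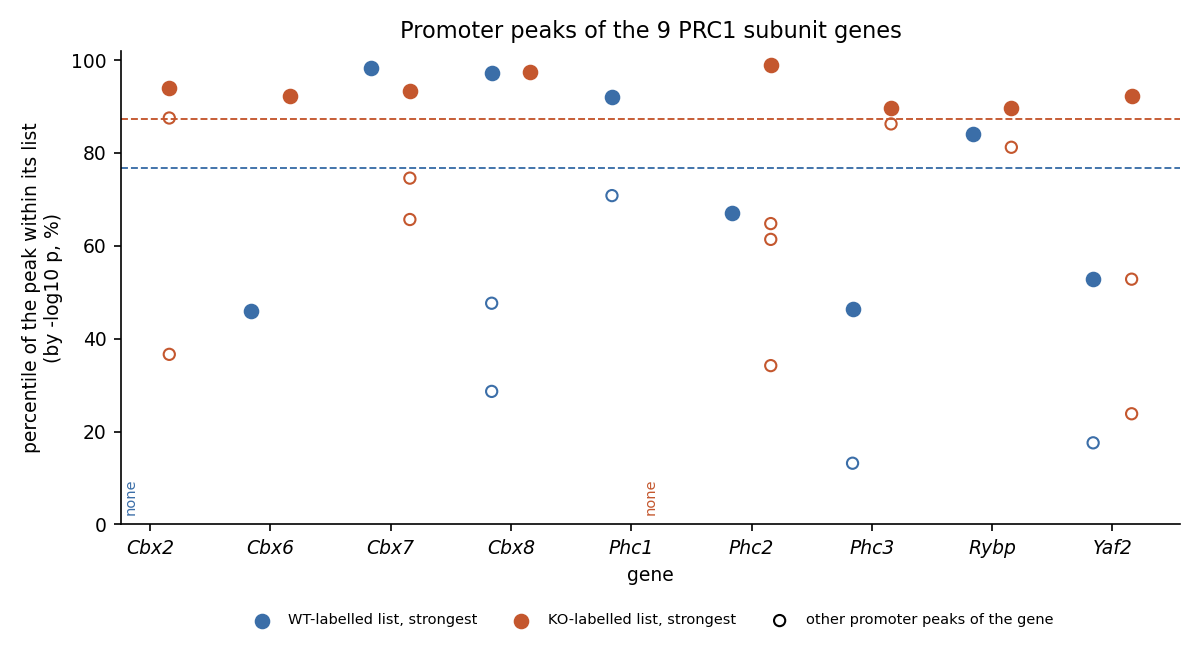
Promoter peaks of the 9 subunit genes. The y axis gives the percentile of each peak within its list by −log10 p, in percent, and the x axis gives the gene. Filled points are the strongest peak of a gene in each list, open points the other promoter peaks, and dashed lines the median of the strongest promoter peak over all protein-coding genes (76.8 in the WT-labelled list in blue, 87.3 in the KO-labelled list in orange). Cbx7 and Cbx8 lie above both lines in both lists, and Cbx6, Phc2, Phc3 and Yaf2 lie below the blue line in the WT-labelled list and above the orange line in the KO-labelled list.

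Cbx2 (ENSMUSG00000025577.7, chr11:119022962-119031270, plus strand, GRCm38) encodes a CBX protein that compacts nucleosomes. No peak was listed anywhere in its region in the WT-labelled list, and 6 peaks were listed in the KO-labelled list. The strongest lay near the 5′ end of the gene, at chr11:119023423-119023749, with its centre in an intron 139 bp before an internal start. It had 36 reads at the summit (95% Poisson interval 25.2 to 49.8) on a background of 12.7, a fold enrichment of 2.71, a −log10 q of 4.18 and a percentile of 94.0. A peak at chr11:119022796-119023213, whose centre was 43 bp inside the gene, had 31 reads and a percentile of 87.5. The remaining promoter peak, at chr11:119024804-119025197 in an intron, was weaker, with 28 reads and a percentile of 36.6. Divided by the ratio of backgrounds, the strongest of these summits would hold 28.3 reads on a background of 9.95 in the WT-labelled list, where a peak needed 18 reads to be listed. Reads at listed summits are maxima and were chosen for being high. Scaled values here and below are thus not estimates of what the other library should hold. When scaled this way, 20 of 20 WT-labelled and 27 of 28 KO-labelled member peaks without a partner reached the number needed. Reaching it therefore sets no single peak apart.

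Cbx8 (ENSMUSG00000025578.9, chr11:119036305-119040969, minus strand) follows Cbx2 after a gap of 5034 bp on the same chromosome, with the gene ends facing each other. It encodes a chromodomain protein that takes part in repression of the Ink4a/Arf locus. Its promoter was marked in both libraries. The peak of the WT-labelled list at chr11:119040950-119041337 had 31 reads at the summit (21.1 to 44.0) on a background of 9.32, a −log10 q of 4.24 and a percentile of 97.3. The peak of the KO-labelled list at chr11:119040884-119041505 covered all 388 bases of the former, with its summit 11 bp away, and had 44 reads (32.0 to 59.1) on a background of 14.1, a −log10 q of 6.48 and a percentile of 97.4. Thus the ranks were nearly equal. The WT-labelled list held 2 further promoter peaks of Cbx8, at percentiles 47.6 and 28.7, without a partner in the other list.

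The sequence upstream of the Cbx8 start is shown because strong promoter peaks of both lists covered it. The RefSeq window of 300 bases around its start (chr11:119040864-119041163, minus strand, GRCm38.p6) had 214 bases inside the peak of the WT-labelled list and 280 bases inside that of the KO-labelled list. The 194 bases before the annotated exon, chr11:119040970-119041163, are given 5′ to 3′ on the minus strand. Capitals mark matches to a CCAAT box (CCAAT or ATTGG) and to the GC box of SP and KLF factors (GGGCGG or CCGCCC), and each run of capitals is 1 match.
Cbx8: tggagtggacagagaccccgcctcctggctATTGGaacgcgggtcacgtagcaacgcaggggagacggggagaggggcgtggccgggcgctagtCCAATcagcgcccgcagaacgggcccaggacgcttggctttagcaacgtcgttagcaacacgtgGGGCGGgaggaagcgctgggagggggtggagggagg
The window held 2 CCAAT boxes and 1 GC box. At least 1 CCAAT box was found in 37.8% of the 20150 promoter windows of protein-coding genes, and at least 1 GC box in 47.8%. A cyclic AMP response element (TGACGTCA, the same on both strands, in 2.31% of windows) lay within the transcribed bases that are not shown. A match is a description of the letters and not a bound site.

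Cbx7 (ENSMUSG00000053411.16, chr15:79915807-79971119, minus strand) encodes the main CBX protein of pluripotent cells. Its 9 annotated starts fall at the 5′ end of the longest transcripts and about 38 kb further into the gene, where all starts of the basic transcript set lie. Its strongest promoter peak in both lists was the same site, 2.85 kb upstream of the 5′ end. In the WT-labelled list, chr15:79973854-79974079 had 26 reads at the summit (17.0 to 38.1) on a background of 6.32 and a percentile of 98.2. In the KO-labelled list, chr15:79973875-79974080 had 27 reads (17.8 to 39.3) on a background of 8.04 and a percentile of 93.4. The summits were 66 bp apart, and among the 7 genes with promoter peaks in both lists Cbx7 alone had its strongest one ranked lower in the KO-labelled list. This direction rests on the distant site: with a window of 1 kb, with basic transcripts or with RefSeq starts, Cbx7 had promoter peaks in the KO-labelled list alone, and so counted on the other side. At the downstream starts the lists differed. The KO-labelled list held a peak at chr15:79932464-79932728, 43 bp inside a protein-coding start, with 25 reads and a percentile of 65.7. Another lay 2635 bp downstream of a start in an intron, with 26 reads and a percentile of 74.6. The WT-labelled list held no promoter peak there, and on its depth scale the former would hold 19.7 reads where 15 were needed. Nearly all member peaks without a partner passed this check.

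The window at the downstream start is shown because a peak was listed there in the KO-labelled list alone. Of the 300 bases at chr15:79932597-79932896 (minus strand, GRCm38.p6, RefSeq), 132 lay in that peak and none in a peak of the WT-labelled list. The 128 bases outside exons, chr15:79932769-79932896, lay upstream of that peak and not in it. They held 1 CCAAT box and 1 GC box.
Cbx7: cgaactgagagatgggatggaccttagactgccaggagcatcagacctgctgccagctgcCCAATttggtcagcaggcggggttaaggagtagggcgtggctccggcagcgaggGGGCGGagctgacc
The observed over expected CpG ratio of the whole window was 0.992, above that of 91.1% of promoter windows.

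Cbx6 (ENSMUSG00000089715.12, chr15:79823896-79834688, minus strand) lies 81.1 kb from Cbx7. Its 8 annotated starts all fall within 890 bp, and starts of Npcd, which overlaps it, lie within 3 kb of its promoter peaks, so that the peaks cannot be given to Cbx6 alone. In the WT-labelled list the promoter peak at chr15:79833284-79833598, 357 bp inside the most downstream start, had 23 reads (14.6 to 34.5), a −log10 q of 1.22 and a percentile of 45.9. In the KO-labelled list the peak at chr15:79834131-79834576, within the first exons, had 36 reads (25.2 to 49.8), a −log10 q of 3.73 and a percentile of 92.3. These peaks did not overlap, and each list was without a peak at the position of the other. The RefSeq window of the gene lay almost wholly in the latter peak, with 293 of 300 bases, a CpG ratio of 0.805 and 3 GC boxes. The other peaks of Cbx6 were found in the WT-labelled list alone. The strongest of these, at chr15:79828138-79828422 in a coding exon, had 27 reads and a percentile of 85.6.

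Among the polyhomeotic genes, Phc2 (ENSMUSG00000028796.17, chr4:128654702-128752881, plus strand) is the longest member, with 12 annotated starts in 4 places. At the first start the KO-labelled list held the strongest promoter peak of all 9 genes, chr4:128654384-128654893. It had 42 reads at the summit (30.3 to 56.8) on a background of 9.84, a fold enrichment of 3.97, a −log10 q of 9.99 and a percentile of 99.0. The WT-labelled list held no peak at this start. On its depth scale the same summit would hold 33.0 reads on a background of 7.74, where 15 reads were needed for a peak to be listed. This check was passed by 27 of the 28 KO-labelled member peaks without a partner, so it does not set Phc2 apart. At the cluster of starts about 73 kb downstream both lists held a peak. That of the WT-labelled list, chr4:128727769-128728018, had 23 reads and a percentile of 67.0, and that of the KO-labelled list, chr4:128727487-128728001, had 27 reads and a percentile of 64.8. Near the internal start at chr4:128710164, 2 weaker promoter peaks were present in the KO-labelled list alone, with 30 and 27 reads and percentiles of 61.4 and 34.2. At the remaining start, about 34 kb into the gene, neither list held a promoter peak.

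The upstream sequences of 3 Phc2 starts are shown because the lists differed between them. The first (chr4:128654452-128654701) ended at the start that was marked in the KO-labelled list alone, the middle one (chr4:128688488-128688737) at the start without a peak, and the downstream one (chr4:128727321-128727570) at the cluster marked in both lists. All 3 are the 250 bases before the RefSeq start on the plus strand of GRCm38.p6, with CCAAT boxes, GC boxes and the ETS core (CCGGAA or TTCCGG) in capitals.
Phc2 first start: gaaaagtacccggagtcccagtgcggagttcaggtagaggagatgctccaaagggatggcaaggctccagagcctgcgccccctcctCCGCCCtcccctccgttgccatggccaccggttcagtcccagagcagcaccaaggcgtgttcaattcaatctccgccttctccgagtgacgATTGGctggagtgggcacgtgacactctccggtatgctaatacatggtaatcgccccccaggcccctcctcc
Phc2 middle start: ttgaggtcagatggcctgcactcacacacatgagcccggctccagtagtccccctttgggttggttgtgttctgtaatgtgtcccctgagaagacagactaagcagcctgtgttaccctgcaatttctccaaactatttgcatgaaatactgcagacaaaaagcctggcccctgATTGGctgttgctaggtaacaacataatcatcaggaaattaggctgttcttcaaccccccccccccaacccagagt
Phc2 downstream start: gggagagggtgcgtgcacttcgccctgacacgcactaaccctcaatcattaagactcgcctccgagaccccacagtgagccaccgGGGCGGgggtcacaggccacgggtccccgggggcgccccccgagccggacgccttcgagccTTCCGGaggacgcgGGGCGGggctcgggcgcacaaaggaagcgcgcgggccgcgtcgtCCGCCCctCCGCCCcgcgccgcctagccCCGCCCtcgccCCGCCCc
The peak of the KO-labelled list covered all 300 bases of the first window. No peak touched the middle window. Of the downstream window, 134 bases lay in the KO-labelled peak and none in the WT-labelled peak, which began beyond it. The CpG ratio of the windows was 0.613 at the first start, 0.107 at the middle start and 1.02 at the downstream start, above 52.0%, 10.7% and 92.9% of promoter windows, respectively. The downstream window held 6 GC boxes and 1 ETS core (an ETS core was found in 19.2% of windows), the first held 1 GC box and 1 CCAAT box, and the middle one 1 CCAAT box.

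Phc1 (ENSMUSG00000040669.14, chr6:122317731-122340561, minus strand) encodes a polyhomeotic protein whose loss in mice disturbs neural crest derivatives. Its 14 annotated starts spread over the first 5416 bp of the gene. The WT-labelled list held 2 promoter peaks, both at internal starts. The stronger, at chr6:122336190-122336452 in an intron, had 22 reads (13.8 to 33.3) on a background of 6.32 and a percentile of 92.1. The weaker, at chr6:122334874-122335099 in a coding exon, had 19 reads and a percentile of 70.8. The KO-labelled list held no promoter peak. On its depth scale the stronger summit would hold 28.0 reads where 15 were needed. All 20 WT-labelled member peaks without a partner passed this check, so it sets Phc1 apart in no way. No peak of either list touched the RefSeq window at the upstream starts, whose CpG ratio of 0.534 was above that of 46.2% of promoter windows and which held no match to any motif searched. Upstream of the gene each list held a peak of its own, 7187 bp upstream with 18 reads in the WT-labelled list and 5542 bp upstream with 26 reads in the KO-labelled list.

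Phc3 (ENSMUSG00000037652.15, chr3:30899371-30969415, minus strand) had weak promoter peaks in the WT-labelled list. At chr3:30969226-30969588 there were 18 reads (10.7 to 28.5) and a percentile of 46.4, and at chr3:30968828-30969082 there were 16 reads and a percentile of 13.2. In the KO-labelled list a peak of 832 bp, chr3:30968723-30969554, overlapped both, with 28 reads (18.6 to 40.5), a −log10 q of 3.18 and a percentile of 89.6. A further peak 772 bp upstream, chr3:30970083-30970290, had 27 reads and a percentile of 86.2 and no partner. The upstream sequence of Phc3 (chr3:30969416-30969665, minus strand, GRCm38.p6) is shown because it carries the rarer NRF1 motif CGCATGCG, which reads the same on both strands.
Phc3: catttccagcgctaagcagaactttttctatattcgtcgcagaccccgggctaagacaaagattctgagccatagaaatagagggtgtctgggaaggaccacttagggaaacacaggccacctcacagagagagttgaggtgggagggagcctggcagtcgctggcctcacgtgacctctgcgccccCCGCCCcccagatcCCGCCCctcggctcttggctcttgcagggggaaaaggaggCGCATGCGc
Capitals mark 2 GC boxes and the NRF1 motif, found in 2.62% of promoter windows. A YY1 motif (AAGATGG or CCATCTT, in 6.30% of windows) lay in the transcribed bases that are not shown. Of the 300 bases, 223 lay in a peak of the WT-labelled list and 189 in one of the KO-labelled list. The E2F motif (TTTCCCGC or GCGGGAAA, in 1.45% of windows) and the TATA box (TATAAA or TTTATA, in 12.1%) were found in none of the 8 windows of the 6 member genes with a window (Cbx6, Cbx7, Cbx8, Phc1, Phc2 and Phc3).

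Rybp and Yaf2, the subunits of the variant complexes, both had promoter peaks in both lists. At Rybp (ENSMUSG00000072872.3, chr6:100228565-100287485, minus strand) the peak of the WT-labelled list, chr6:100288051-100288589, had 24 reads (15.4 to 35.7) on a background of 8.30 and a percentile of 84.1. The peak of the KO-labelled list, chr6:100287632-100288371, had 31 reads (21.1 to 44.0) on a background of 11.2 and a percentile of 89.8. Their summits were 13 bp apart and lay upstream of the start. A second peak in the KO-labelled list, chr6:100288594-100288793, began just beyond the end of the peak of the WT-labelled list and had 29 reads and a percentile of 81.2.

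Yaf2 (ENSMUSG00000022634.9, chr15:93284278-93336935, minus strand) held overlapping peaks at 2 neighbouring positions, and their order differed between the lists. In a coding exon, chr15:93336183-93336513 of the WT-labelled list had 16 reads and a percentile of 17.6, and chr15:93336324-93336572 of the KO-labelled list had 28 reads and a percentile of 92.2. At the start and upstream, chr15:93336991-93337500 of the WT-labelled list had 18 reads and a percentile of 52.8, and chr15:93336752-93337065 of the KO-labelled list had 20 reads and a percentile of 23.8. Thus the peak at or just before the start was the stronger one in the WT-labelled list and the weaker one in the KO-labelled list. The 95% intervals of the summit reads overlapped in both pairs. A further promoter peak in the KO-labelled list, 2687 bp downstream of the internal start, had 21 reads and a percentile of 52.8 and no partner.

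With a promoter window of 1 kb in place of 3 kb, 10 of the 13 promoter peaks in the WT-labelled list and 12 of the 19 in the KO-labelled list would remain. The peaks nearest the edge of the 3 kb window, on its inner side, were those of Cbx7 at 2848 and 2859 bp from a start, the Yaf2 peak at 2687 bp, a Cbx7 peak at 2635 bp and a Phc2 peak at 2173 bp. The peaks just outside it were a Rybp peak of the WT-labelled list at 3645 bp (19 reads, percentile 12.6) and a Cbx8 peak of the KO-labelled list at 4132 bp (33 reads, percentile 66.4).

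All peaks of the 9 genes are drawn in the peak maps. The KO-labelled list held 1.21 times as many of them as the WT-labelled list (95% interval 0.745 to 1.98), while the ratio over all protein-coding genes was 1.26. The CBX genes had 14 peaks in the WT-labelled list and 19 in the KO-labelled list, the PHC genes 15 and 16, and Rybp and Yaf2 together 4 and 5. At promoters alone the numbers were 13 and 19, or 10 and 12 with a window of 1 kb, beside 20609 and 25830 promoter peaks of all protein-coding genes within 3 kb. More peaks in the KO-labelled list were found for 4 of the 9 genes (Cbx2, Cbx7, Phc2 and Yaf2), against 53.4% of the 18210 protein-coding genes with a peak in either list. Of the 33 WT-labelled peaks, 13 (39.4%, 22.9% to 57.9%) overlapped a peak of the other list, against 28.9% of the peaks at all protein-coding genes. Of the 40 KO-labelled peaks, 12 (30.0%, 16.6% to 46.5%) overlapped one of the WT-labelled list, against 21.9%. Both intervals of the members include the value over all protein-coding genes. They and the interval of the ratio treat peaks of the same gene as independent draws, which they are not, so they are likely too narrow.

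**Figure D2:**
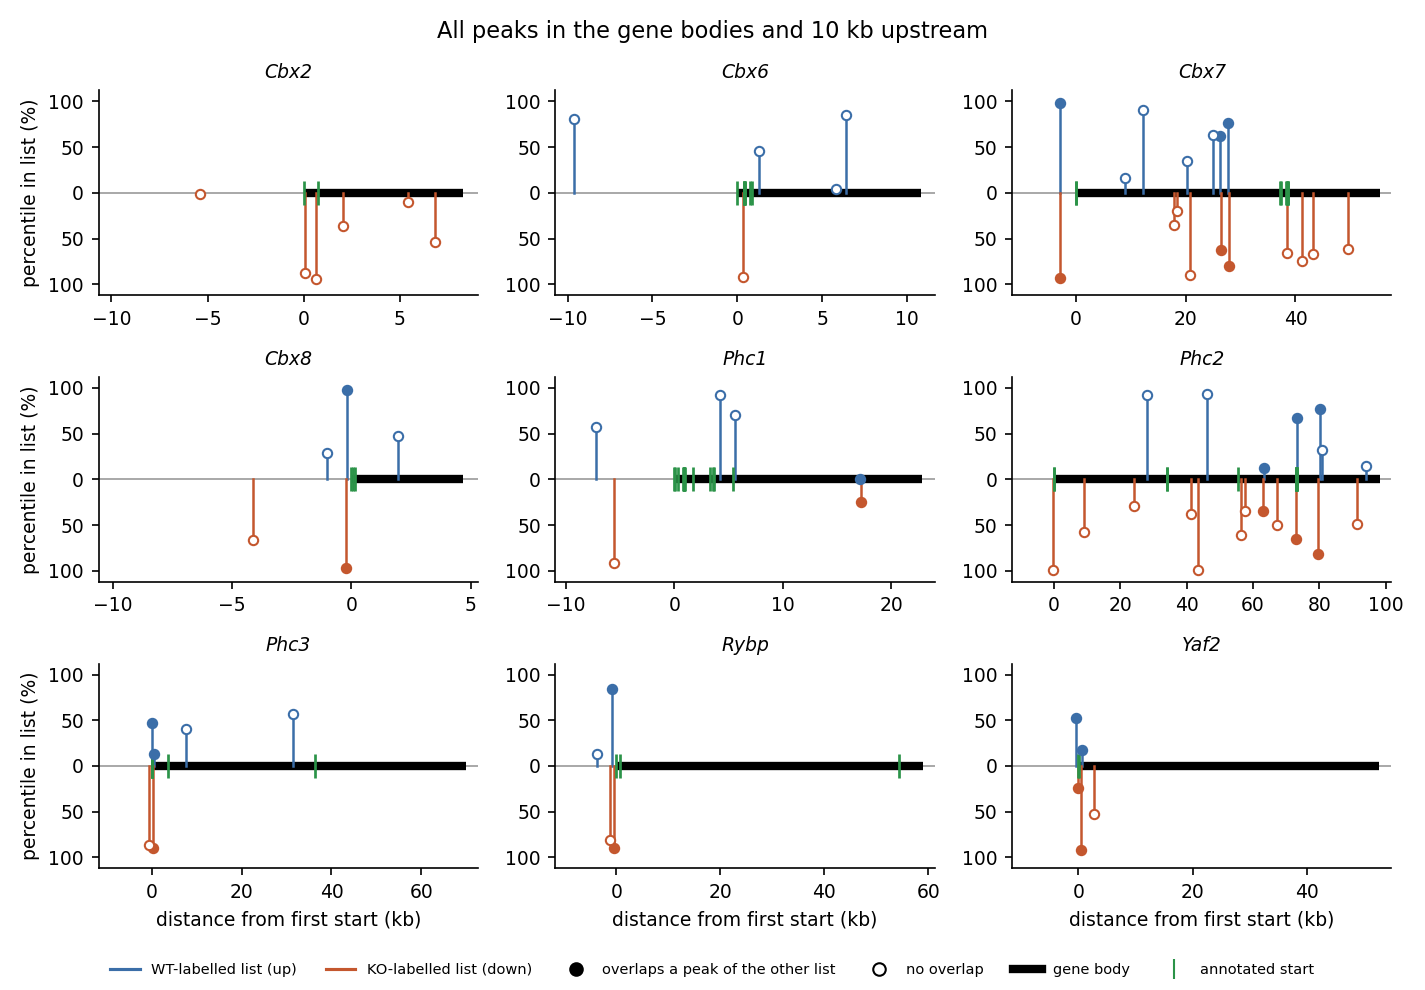
Maps of all peaks at the 9 genes. The x axis of each panel is the distance in kb from the first annotated start in the direction of transcription, and the stems give the percentile of each peak within its list, upward for the WT-labelled list and downward for the KO-labelled list. Filled points overlap a peak of the other list, black bars are gene bodies and green ticks annotated starts. Peaks of Rybp and Yaf2 lie near the first start, those of Cbx7 and Phc2 are spread over the gene body, and Cbx2 has no peak in the WT-labelled list.

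Away from promoters, 5 of 20 peaks in the WT-labelled list and 5 of 21 in the KO-labelled list overlapped a peak of the other list. At promoters 8 of 13 and 7 of 19 did. This split is given for the members only, so the contrast cannot be read as particular to these genes. The strongest distal peak was chr4:128698059-128698417 in an intron of Phc2, found in the KO-labelled list alone. It had 44 reads at the summit (32.0 to 59.1) on a background of 11.6, a −log10 q of 8.99 and a percentile of 98.7. The strongest distal Phc2 peak of the WT-labelled list, chr4:128700649-128700920, lay in the same stretch of introns without touching it and had 26 reads and a percentile of 93.2. Inside Cbx7, 2 pairs of intronic peaks overlapped between the lists with nearly equal ranks. In 1 pair, chr15:79943257-79943456 of the WT-labelled list had 20 reads (percentile 76.6) and chr15:79943158-79943445 of the KO-labelled list 24 (percentile 79.9). Their summits were 64 bp apart. In the other, chr15:79944653-79944909 of the WT-labelled list had 20 reads (percentile 62.1) and chr15:79944406-79944839 of the KO-labelled list 23 (percentile 62.4). The summits of this pair were 346 bp apart. The strongest distal Cbx7 peaks of both lists, with 24 reads at percentile 90.3 in the WT-labelled list and 30 reads at percentile 89.8 in the KO-labelled list, lay at different positions. Of the remaining genes, the strongest distal peak of Cbx2 had 28 reads (percentile 54.3), that of Cbx8 33 reads (percentile 66.4) and that of Phc1 26 reads (percentile 91.4), all in the KO-labelled list. That of Phc3 had 18 reads (percentile 56.8) and that of Rybp 19 reads (percentile 12.6), both in the WT-labelled list, and Yaf2 had no distal peak.

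At promoters 8 pairs of peaks overlapped between the lists, and their summit reads were compared, as in the plot of summit reads. Overlapping peaks did not always have the same summit. The summits were 634 bp apart in the upstream Phc3 pair, 289 bp in the Phc2 pair and 252 bp in the upstream Yaf2 pair. In the other pairs they were at most 66 bp apart. Both Phc3 pairs share the same KO-labelled peak. Each pair had more reads in the KO-labelled list, by 1.04 to 1.75 times. After division by the ratio of commonest backgrounds, the 8 ratios ran from 0.816 to 1.38, with a median of 1.07, and the median was also 1.07 over the 10294 overlapping promoter pairs of all protein-coding genes. The lowest scaled ratio was that of Cbx7 (0.816, 95% interval 0.458 to 1.46), in place 11.0% from the bottom of all pairs. The highest were those of the downstream Phc3 pair and of the exonic Yaf2 pair, with 16 and 28 reads in each case (1.38, 0.719 to 2.72), in place 84.4%. The pairs of Cbx8 (1.12, 0.689 to 1.83) and Rybp (1.02, 0.577 to 1.81) were close to the middle, and Phc2 had 0.923 (0.509 to 1.68). All 8 intervals include 1, so that at this depth no difference in summit reads was detectable in any of these pairs. Fold enrichment over the local background was higher in the KO-labelled list in 3 of the 8 pairs. The local background at Cbx8 was 1.51 times as high in the KO-labelled list, above the 1.27 of the commonest background.

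**Figure D3:**
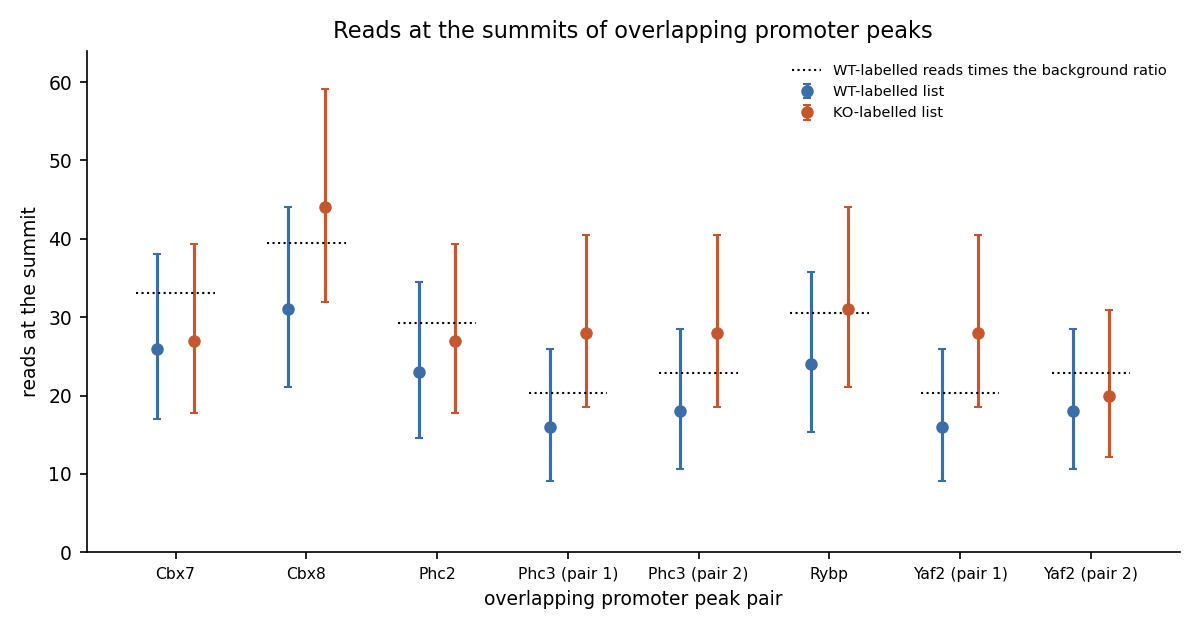
Reads at the summits of the 8 overlapping promoter peak pairs, in the WT-labelled list (blue) and the KO-labelled list (orange), with 95% Poisson intervals. The y axis is the number of reads at the summit, and dotted lines mark the reads of the WT-labelled list multiplied by the ratio of commonest backgrounds, 1.27. The dotted line lies within the interval of the orange point in all 8 pairs.

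Rank could be compared for the 7 genes with a promoter peak in both lists. The difference in percentile of the strongest promoter peaks, KO-labelled minus WT-labelled, varied widely. For Cbx7 it was -4.84, for Cbx8 0.0893 and for Rybp 5.67 points, and in each of these genes both strongest peaks were the same site. It was 32.0 points for Phc2, 39.4 for Yaf2, 43.2 for Phc3 and 46.5 for Cbx6, and among these both strongest peaks overlapped in Phc3 alone. Even in Phc3 the summits of these peaks were 634 bp apart. The median over the 7 genes was 32.0 points (quartiles 2.88 and 41.3), and over the 11618 protein-coding genes with a promoter peak in both lists it was 5.29 (quartiles -2.27 and 25.6). The histogram of rank differences shows that Cbx6 stood above 88.2% of these genes, Phc3 above 86.5%, Yaf2 above 84.4% and Phc2 above 79.8%. Rybp stood above 50.7%, Cbx8 above 33.3% and Cbx7 above 20.3%.

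**Figure D4:**
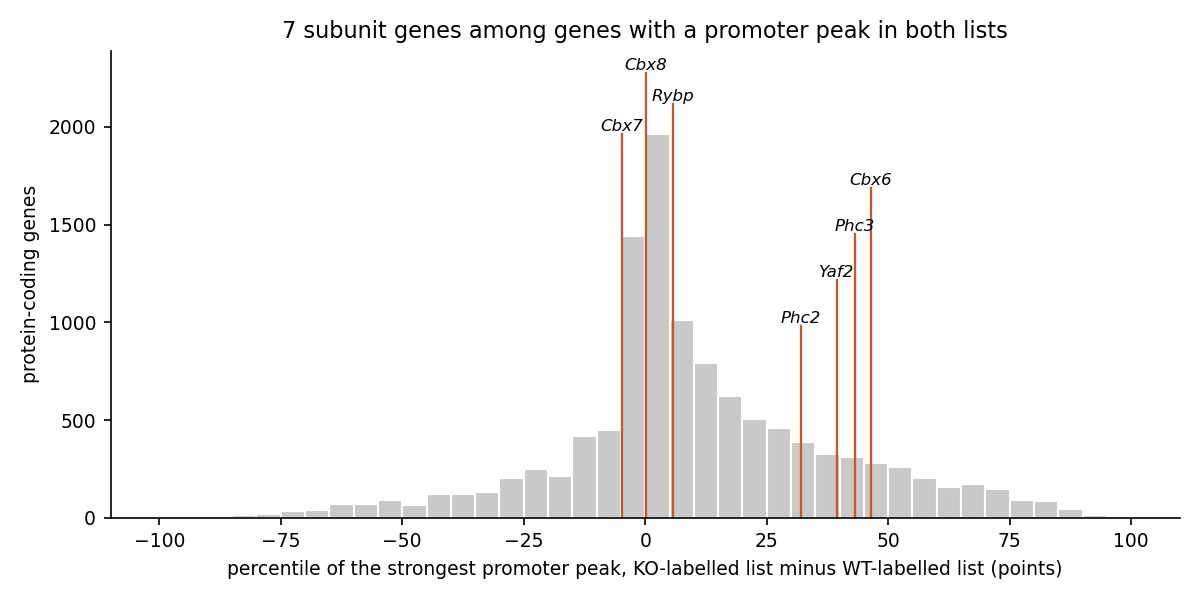
Difference in percentile of the strongest promoter peak, KO-labelled list minus WT-labelled list, in percentile points (x axis), against the number of protein-coding genes in bins of 5 points (y axis, grey bars). Orange lines mark the 7 subunit genes with a promoter peak in both lists and their heights only separate the names. Cbx7, Cbx8 and Rybp lie within 6 points of 0, and Phc2, Yaf2, Phc3 and Cbx6 lie between 32.0 and 46.5.

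In the median, promoter peaks of the 9 genes were richer in CpG than those of all protein-coding genes. Single peaks lay on both sides of the median over all genes, and several came from the same gene. The observed over expected CpG ratio, which is the number of CpG times the length over the product of the numbers of C and G, had a median of 0.574 over the 13 promoter peaks of the WT-labelled list and 0.717 over the 19 of the KO-labelled list. The promoter peaks of all protein-coding genes had medians of 0.444 and 0.462. The GC content showed the same order, with medians of 65.1% and 68.9% for the members against 58.4% and 58.7%. Values within the set were wide, from 0.144 to 1.003 in the WT-labelled list and from 0.0649 to 1.14 in the KO-labelled list. The highest ratios belonged to peaks at the starts of Yaf2 (1.14), Cbx7 (1.06) and Cbx2 (1.04) in the KO-labelled list. The strong upstream peak of Cbx7 that both lists shared was poor in CpG, with 0.304 and 0.328 and a GC content of 46.9% and 45.6%. Peaks outside the promoters had medians of 0.218 and 0.263, beside 0.204 and 0.198 for all peaks. All peaks include promoter peaks, so the sets are unlike and the values cannot be compared directly.

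**Figure D5:**
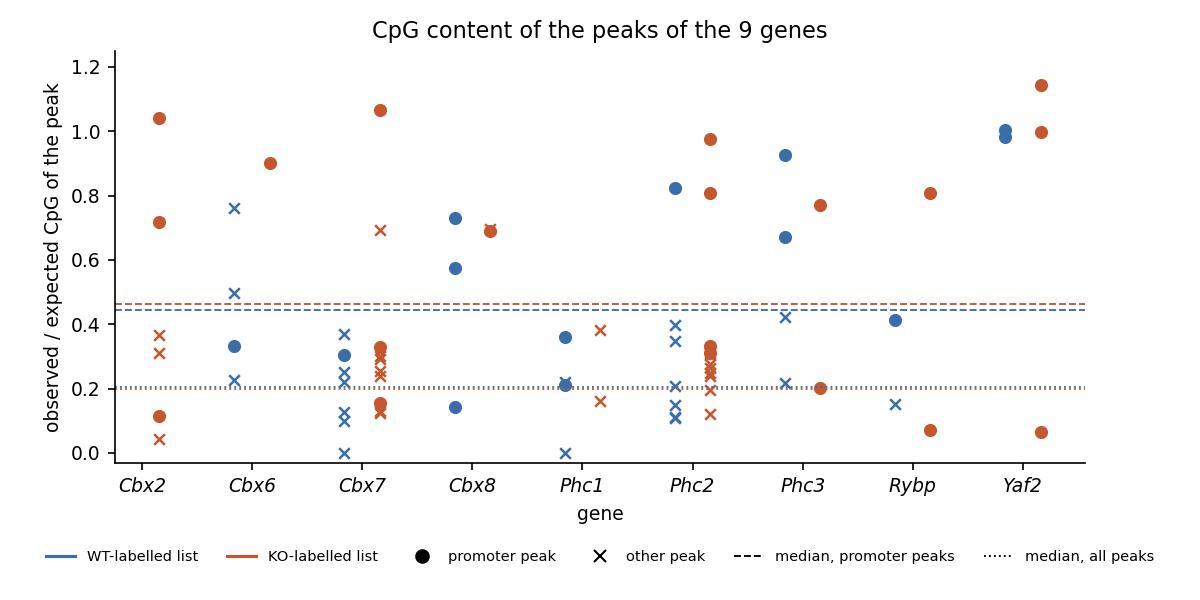
Observed over expected CpG ratio (y axis, no unit) of every peak of the 9 genes, in the WT-labelled list (blue) and the KO-labelled list (orange). Circles are promoter peaks and crosses the other peaks, dashed lines mark the medians of promoter peaks of protein-coding genes (0.444 and 0.462) and dotted lines the medians of all peaks (0.204 and 0.198). Both lists have promoter peaks above and below the dashed lines, and both Yaf2 peaks in the WT-labelled list lie near 1.

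The 19 other PRC1 genes examined, which encode the RING and PCGF core and the accessory subunits, had a promoter peak in 16 cases in the WT-labelled list and in 18 in the KO-labelled list. Their median percentiles were 81.0 and 94.3, and 14 of the 18 with such a peak in at least 1 list ranked higher, or were present only, in the KO-labelled list. Scml2 had no promoter peak in either list. Bcorl1 and E2f6 had one only in the KO-labelled list, at percentiles of 96.2 and 15.8. Rnf2, which encodes RING1B, the main catalytic subunit, was at percentiles of 99.4 and 99.1, with 32 reads in the WT-labelled list and 41 in the KO-labelled list. Fbrs, which encodes an accessory subunit, was at 98.0 and 99.5, with 33 and 60 reads. Of the 3 CBX genes of heterochromatin, which encode the HP1 proteins and are outside PRC1, Cbx3 was at percentiles of 99.6 and 99.2, while Cbx1 had a promoter peak only in the KO-labelled list (percentile 94.7). No member of the described set reached the rank of Rnf2 or Cbx3 in either list. Rnf2, Fbrs and Cbx3 were named because the lower of their percentiles in both lists was highest. This contrast therefore follows in part from that choice.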

How the data were processed

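Chromatin accessibility was given as 2 peak lists, 1 library per genotype, and samples were assigned to WT or Bmi1 KO from the GEO labels. The authors removed adapters and low-quality bases, aligned reads with BWA-MEM and ran MACS2 on every library by itself. The submitters' processing notes name mm10. The deposited fold enrichment is a ratio of summit pileup over local background with 1 added to both, and the deposited −log10 p and −log10 q are those of MACS2. The deposited score was not used.

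Only chromosomes 1 to 19, X and Y entered. Starts were taken from GENCODE vM21. Pileup and background were recovered from fold enrichment and −log10 p, within 0.001 for 100% of the promoter pairs, and the solver was tested on simulated data. Sequences are those of RefSeq for GRCm38.p6, and 75.4% of protein-coding gene symbols had a promoter window, so that motif shares cover those windows only. Intervals are exact (Poisson, binomial or conditional binomial) at 95%. No test between genotypes was possible. The members and lists were chosen with earlier results of these data known, and all 9 members are named. Of the other PRC1 genes listed, 1 is not reported here and was left out of the counts. Alternatives were stricter thresholds, equal list sizes, other windows, overlaps and annotations. Python 3.11.15, numpy 2.4.6, pandas 2.3.3, scipy 1.17.1 and matplotlib 3.10.9 were used.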

Additional observations from a re-analysis of the deposited data

How the results depend on the processing

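No paired analysis was possible because each genotype had 1 library and the results come from no test. Of 51 values recomputed under other settings, 41 stayed close to the value reported (counts within 1.5 times, shares within their interval) and 10 moved. With a −log10 q of 1.3 or more required, the member peaks of the WT-labelled list fell to 19. With 5 or more required, no member peak and 0 members with a promoter peak were left in the WT-labelled list, so that its share of overlapping peaks has no value, and 3 peaks with 2 genes in the KO-labelled list, of which 0% overlapped. With no WT-labelled peak left, that share and the count of genes ranked higher (2 of 2) were fixed by the threshold and show nothing about direction. With a reciprocal overlap of 50%, 12.1% of the WT-labelled peaks and 10.0% of the KO-labelled peaks were shared, against 15.0% and 11.9% at all protein-coding genes. Where both strongest promoter peaks had to overlap, 3 of 4 genes ranked higher in the KO-labelled list, and 4448 of all protein-coding genes did. Here too the share over all genes is not given, so 3 of 4 cannot be read against it. With a promoter window of 1 kb Cbx7 lost its promoter peak in the WT-labelled list. Under RefSeq starts Phc1 and Cbx7 lost their promoter peaks in the WT-labelled list, which left 6 genes. With basic transcripts only, an alternative chosen after seeing the data, Cbx7 lost its own and 7 genes were left. Genes ranked higher in the KO-labelled list, or present in it alone, were then 8 of 9, 8 of 8 and 8 of 9, respectively. Over all protein-coding genes the counts were 10271, 10641 and 10984, beside 11185 (68.6%) in the main setting. Shares over all genes are not given for these settings, so the member counts cannot be read as particular to the members. Summits held 14 to 44 reads, so that only large differences could be seen.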
